A study of Mus musculus with 2 samples.

Results

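Resident macrophages of tissues carry receptors that bind and take up debris, lipoproteins, haemoglobin complexes and dying cells. 10 genes, not all of this kind, were followed across the monocyte, macrophage and dendritic subsets of 1 droplet library of GFP+ cells: Cd163, Mrc1, Lyve1, Folr2, Timd4, Stab1, Msr1, Marco, Cbr2 and P2rx7. They are 10 of the 32287 features of the matrix, and all 10 were found in it. The members were chosen by name with their levels in these cells already known, so the levels below describe how the list was chosen and were not tested. Folr2 (a folate receptor), Cbr2 (carbonyl reductase 2) and P2rx7 (an ATP-gated ion channel) are not scavenger receptors. Timd4, Msr1 and Marco were not highest in resident-like macrophages. For both reasons the list is named here by its genes.

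The cells came from tibialis anterior and gastrocnemius of male S100GFPtg mice, labelled WT, and were taken at an age of 2 months and 7 days after sciatic nerve crush. In this strain green fluorescent protein is driven by the S100B promoter, and the sort kept GFP+ cells without propidium iodide. The study's methods describe pooled animals and the series text a single crushed mouse, so how many animals it holds is unsure. Both libraries of the series come from crushed muscle, the counts of the GFP- one were not analysed here, and with 1 library no difference has a replicate check.

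Several of these proteins mark macrophages that settle in a tissue and keep it clear of waste. CD163 takes up haemoglobin bound to haptoglobin, the mannose receptor (Mrc1) takes up glycoproteins and collagen fragments, LYVE1 binds hyaluronan, and TIM4 (Timd4) binds phosphatidylserine on dying cells. Macrophages that enter an injured muscle or nerve from blood monocytes pass through states with other surface proteins, among them MHC class II, which presents antigen to T cells.

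Among 36400 barcodes with 170648616 unique molecular identifiers (UMIs), 8894 held at least 5000 UMIs and 8701 of these also had over 200 genes and under 10% mitochondrial counts, with a median of 11624 UMIs. Of them 5845 (67.2%) were myeloid by 8 marker genes. Gates on summed marker UMIs, none of them on a member, gave 9 subsets. Resident-like macrophages (1446 cells) were gated on Fcna, Ltc4s, Vsig4 and Cd209f. Cells outside all gates but with at least 20 UMIs of the 3 C1q genes were split at 50 UMIs of 3 MHC class II genes into MHC class II and C1q macrophages (1396 cells) and C1q macrophages with few MHC class II UMIs (1154 cells). The others were 220 lipid-associated-like macrophages (Gpnmb, Spp1, Fabp5), 515 monocyte-like cells (Ly6c2, Chil3), 220 cells of both of these gates, 227 cDC1-like cells (Xcr1, Clec9a), 189 cDC2-like cells (Cd209a) and 35 mature dendritic-like cells (Ccr7, Ccl22). A level is the summed UMIs of a gene divided by all UMIs of the subset and scaled to 1000000 (CPM), and intervals are exact 95% limits that cover counting error only.

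The gates need further genes of each marker list, so the levels of the list genes check the names only in part. Ccl8, a chemokine on the resident list whose own level sets no minimum, was at 2945 CPM in resident-like macrophages, 1063 in C1q macrophages with few MHC class II UMIs, 293 in MHC class II and C1q macrophages and 37.1 in monocyte-like cells. Plac8, on the monocyte list, was at 759 CPM in monocyte-like cells against 6.79 in resident-like ones. Fcna still reached 52.8 CPM in C1q macrophages with few MHC class II UMIs against 383 in resident-like ones, so the gate does not part these subsets fully. RNA alone does not show how long a cell had lived in the tissue. Transcripts of the Gfp feature were at 191 CPM in resident-like macrophages and at 1044 in monocyte-like cells, and the part of the GFP sort in the levels below was not tested. Of the barcodes, 372 also occur in the GFP- library, 10 of them resident-like, and leaving these out moved no ratio of a member beyond its interval.

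The 300 bases around the annotated start of a gene (250 before and 50 after it) are in the RefSeq GRCm38.p6 table of windows used here for 8 of the 10 members. Lyve1 and Msr1 have an annotated position but no window in it. Folr2 and P2rx7 have 2 windows. Of these 10 windows 6 are printed as examples: those of Mrc1, Cbr2, Stab1 and P2rx7 (its first window), which held GAGGAA, that of Timd4, whose pattern differs, and that of Cd163, which held neither motif. Both Folr2 windows, each with 1 TGCTGA, the second of P2rx7 and that of Marco are not printed. Capitals mark GAGGAA (or TTCCTC on the other strand), the core of sites for PU.1, the factor that all myeloid cells use, and TGCTGA (or TCAGCA), a short part of sites for Maf factors. No 2 of these matches share a base.
Mrc1, chr2:14229164-14229463, plus strand: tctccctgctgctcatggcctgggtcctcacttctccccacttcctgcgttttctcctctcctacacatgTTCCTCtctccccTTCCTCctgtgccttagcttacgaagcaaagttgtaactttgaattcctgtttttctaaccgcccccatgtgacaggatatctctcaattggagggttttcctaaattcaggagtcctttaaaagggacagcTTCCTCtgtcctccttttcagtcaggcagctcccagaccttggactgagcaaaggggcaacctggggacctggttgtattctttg
Cbr2, chr11:120731972-120732271, minus strand: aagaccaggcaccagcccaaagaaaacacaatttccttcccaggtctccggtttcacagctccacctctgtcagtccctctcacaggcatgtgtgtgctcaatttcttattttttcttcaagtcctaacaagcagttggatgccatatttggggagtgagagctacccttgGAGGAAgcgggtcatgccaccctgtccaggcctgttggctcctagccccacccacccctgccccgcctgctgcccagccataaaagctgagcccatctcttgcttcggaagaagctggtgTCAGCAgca
Stab1, chr14:31168592-31168891, minus strand: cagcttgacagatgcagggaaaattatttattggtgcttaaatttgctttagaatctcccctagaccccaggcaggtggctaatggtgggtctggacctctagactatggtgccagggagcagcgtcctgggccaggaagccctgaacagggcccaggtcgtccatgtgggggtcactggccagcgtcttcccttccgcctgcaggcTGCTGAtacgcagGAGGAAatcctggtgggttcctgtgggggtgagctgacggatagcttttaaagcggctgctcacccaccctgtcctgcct
P2rx7, chr5:122643677-122643976, plus strand: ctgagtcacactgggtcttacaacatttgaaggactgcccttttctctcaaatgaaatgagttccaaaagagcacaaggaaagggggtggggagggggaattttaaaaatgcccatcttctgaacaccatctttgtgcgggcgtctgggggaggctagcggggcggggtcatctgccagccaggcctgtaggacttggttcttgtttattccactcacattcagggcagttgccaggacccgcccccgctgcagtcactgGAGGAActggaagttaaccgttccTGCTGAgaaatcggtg
Timd4, chr11:46810549-46810848, plus strand: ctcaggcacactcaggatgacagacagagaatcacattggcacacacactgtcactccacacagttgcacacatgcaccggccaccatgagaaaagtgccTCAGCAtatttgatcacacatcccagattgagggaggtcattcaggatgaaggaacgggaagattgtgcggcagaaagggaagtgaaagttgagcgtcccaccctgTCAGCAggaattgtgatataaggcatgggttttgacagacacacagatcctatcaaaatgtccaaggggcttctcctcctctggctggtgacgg
Cd163, chr6:124304401-124304700, plus strand: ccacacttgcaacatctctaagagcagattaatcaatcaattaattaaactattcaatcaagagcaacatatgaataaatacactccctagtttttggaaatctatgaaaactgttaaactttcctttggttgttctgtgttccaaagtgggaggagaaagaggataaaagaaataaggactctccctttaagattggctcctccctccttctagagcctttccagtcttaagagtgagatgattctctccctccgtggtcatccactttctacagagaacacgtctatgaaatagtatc

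GAGGAA was found in a window of 5 of the 8 members and in 28.3% of all 32851 windows of this length in the table. TGCTGA was found in 5 of the 8 members and in 19.5% of all windows. The counts are of members, 2 of which had 2 windows, while the shares are of single windows, so they are unlike measures. Cbr2, Stab1 and P2rx7 held both, the window of Mrc1 held GAGGAA 3 times, and that of Timd4 held TGCTGA 2 times and no GAGGAA. None of the 8 held CACGTG (7.15% of all windows) or TATAAA (13.6%). A match is a run of letters and not a site shown to be bound.

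Mrc1, the mannose receptor, was the broadest of the list. It was at 3102 CPM (3078 to 3127) in resident-like macrophages, 2701 in C1q macrophages with few MHC class II UMIs and 2120 in MHC class II and C1q macrophages. All 1446 resident-like cells held a Mrc1 UMI. The level was 616 CPM in lipid-associated-like macrophages, 549 in cells of both gates, 659 in monocyte-like cells, 1005 in cDC2-like cells, 166 in cDC1-like cells and 118 in mature dendritic-like cells, where 15 of 35 cells held it. All 8 neighbours in this order were apart by more than their counting interval. In 1145 mesenchymal cells of the same library it was 22.1 CPM, taken here as the background level.

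Cd163, the haemoglobin-haptoglobin receptor, differed in steps among the C1q macrophages. It was at 805 CPM (793 to 818) in resident-like macrophages, 582 (569 to 596) in C1q macrophages with few MHC class II UMIs and 351 (342 to 361) in MHC class II and C1q macrophages. Outside these it was at 29.0 CPM in lipid-associated-like macrophages, 16.0 in cells of both gates, 18.5 in monocyte-like cells, 23.4 in cDC1-like cells and 7.27 in mature dendritic-like cells. Neighbours in the order of these 5 could not be told apart, since each interval of their ratio reaches 0. The cDC2-like cells stood above them with 144 CPM (130 to 160), from 80 of 189 cells. The macrophage gene C1qa was at 575 CPM in these cDC2-like cells, and the part of mixed droplets in these values was not tested.

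Lyve1, the hyaluronan receptor, differed more among the C1q macrophages than Cd163 or Mrc1. It was at 577 CPM (567 to 588) in resident-like macrophages, 292 in C1q macrophages with few MHC class II UMIs and 113 in MHC class II and C1q macrophages. In the other 6 subsets it ranged from 2.67 CPM in cells of both gates to 46.6 CPM in cDC2-like cells. Outside the myeloid cells it was at 252 CPM in 40 endothelial cells, and all 95 of these UMIs lay in 5 cells that also held the lymphatic markers Ccl21a and Prox1, with 110 to 326 Ccl21a UMIs each.

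Folr2, a folate receptor with a lipid anchor, was at 850 CPM (837 to 863) in resident-like macrophages. The value was 424 in C1q macrophages with few MHC class II UMIs and 241 in MHC class II and C1q macrophages. In the other subsets it lay between 16.4 and 60.4 CPM, with 51.6 in lipid-associated-like macrophages and 23.9 in monocyte-like cells. Nearly every resident-like cell held it (1431 of 1446).

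Stab1, a receptor for oxidised lipoprotein and for components of the matrix, was, of the 7 members highest in resident-like macrophages, the one with the smallest ratio to lipid-associated-like macrophages. It was at 524 CPM (514 to 535) in resident-like macrophages, 439 and 235 in the C1q macrophages with few and with many MHC class II UMIs, 157 (145 to 169) in lipid-associated-like macrophages, 123 in cells of both gates and 48.2 in monocyte-like cells. The dendritic subsets lay at 51.7, 18.9 and 1.82 CPM for cDC2-like, cDC1-like and mature cells. In endothelial cells it was at 132 CPM, from 19 of 40 cells, and 17 of these 50 UMIs came from the 5 cells with Lyve1.

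Cbr2, a carbonyl reductase, was at 623 CPM (612 to 635), 406 and 245 in resident-like macrophages and the C1q macrophages with few and with many MHC class II UMIs. In cells of both gates, cDC2-like cells and lipid-associated-like macrophages it was at 63.3, 62.0 and 61.6 CPM, which cannot be told apart by their counts. P2rx7, which opens on extracellular ATP, was at 501 CPM (491 to 511), 324 and 106 in the same 3 macrophage subsets, and at 14.5 to 41.9 CPM in the other 6. Schwann and tenocyte cells of the library held P2rx7 at 25.2 and 17.4 CPM, near its 22.1 CPM in monocyte-like cells. Mesenchymal cells, the background used here, were lower. They held 108 P2rx7 UMIs with 16.5% of all UMIs of the deep cells, against 137 in monocyte-like cells with 5.46%.

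**Figure D1:**
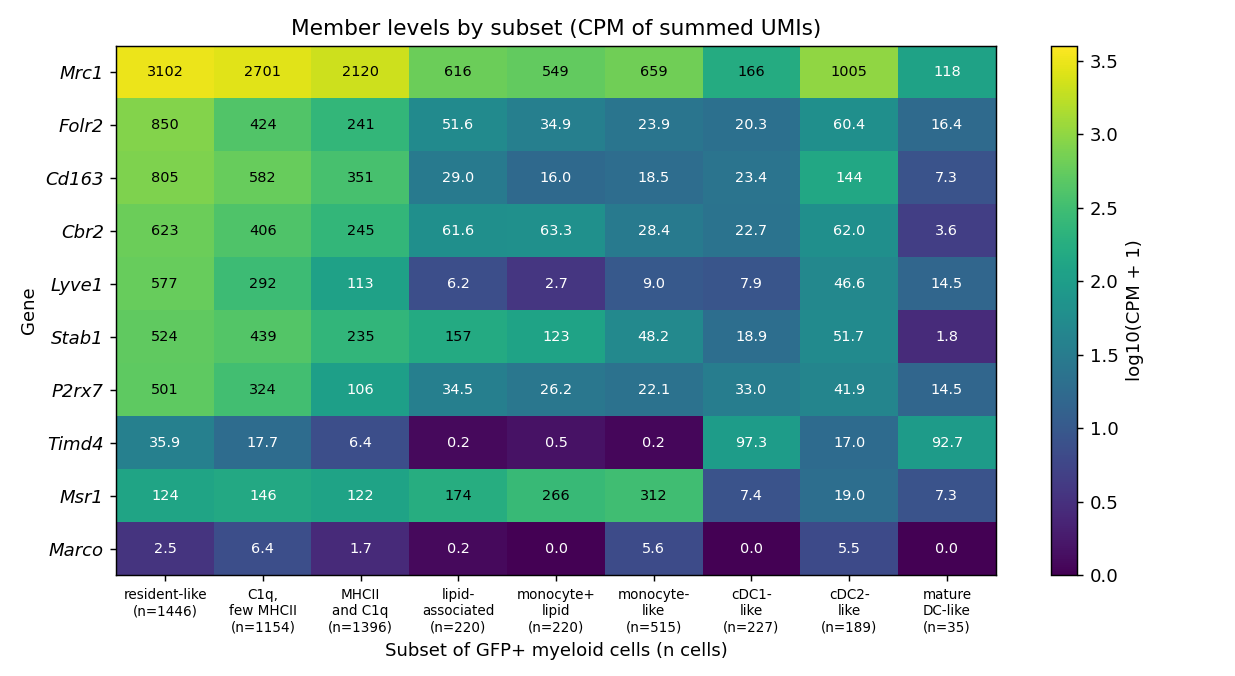
Level of each member (rows) in each of 9 gated subsets (columns, n cells), in CPM of summed UMIs, with colour for log10(CPM + 1). 7 of 10 members are highest in the first column, while Timd4 is highest in cDC1-like cells and Msr1 in monocyte-like cells.

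Shares of cells were taken after each cell was thinned at random to 1000 UMIs, since depth differs between subsets. Cd163 then had a UMI in 47.1% of resident-like cells (44.5 to 49.7%; 83.5% without thinning) and in 0.961% of mesenchymal cells (3.84% without thinning), at median depths of 12787 and 16007 UMIs. For Folr2 the resident-like share was 55.2% and for Lyve1 35.3%. Stab1 and P2rx7 had close resident-like levels, 524 and 501 CPM, but unlike shares of cells. At 5000 UMIs a cell, 86.5% of resident-like cells held Stab1 and 58.1% held P2rx7. P2rx7 UMIs were thus gathered in fewer cells than those of Stab1.

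Members were found together in single cells. Of Cd163, Lyve1, Folr2, Stab1, Cbr2 and P2rx7, a resident-like cell thinned to 5000 UMIs held a median of 5, and 402 of 1446 cells (27.8%) held all 6. No resident-like cell held none of them, which allows a share of up to 0.255% by the exact interval. The median was 4 in C1q macrophages with few MHC class II UMIs, 2 in MHC class II and C1q macrophages, 1 in lipid-associated-like macrophages and 0 in monocyte-like and all dendritic-like subsets. Monocyte-like cells held none of the 6 in 66.4% of cells (62.1 to 70.5%). The cDC2-like cells were split, with none of the 6 in 57.1% of cells and all 6 in 6 of 189 cells. Lyve1, Folr2 and Timd4 are often used to mark macrophages that last in a tissue. Lyve1 and Folr2 were found together in 73.4% of resident-like cells (71.0 to 75.6%). The share was 44.1% in C1q macrophages with few MHC class II UMIs and 18.4% in MHC class II and C1q macrophages. Timd4 had a UMI in only 368 of 1446 resident-like cells even without thinning, which limits the share with all 3. Single cells with all 3 made up 12.4% of resident-like cells and 5.98% of C1q macrophages with few MHC class II UMIs. They were 1.29% of MHC class II and C1q macrophages and 1.59% of cDC2-like cells (3 of 189). There was none among monocyte-like, lipid-associated-like, cDC1-like and mature dendritic-like cells or cells of both gates.

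**Figure D2:**
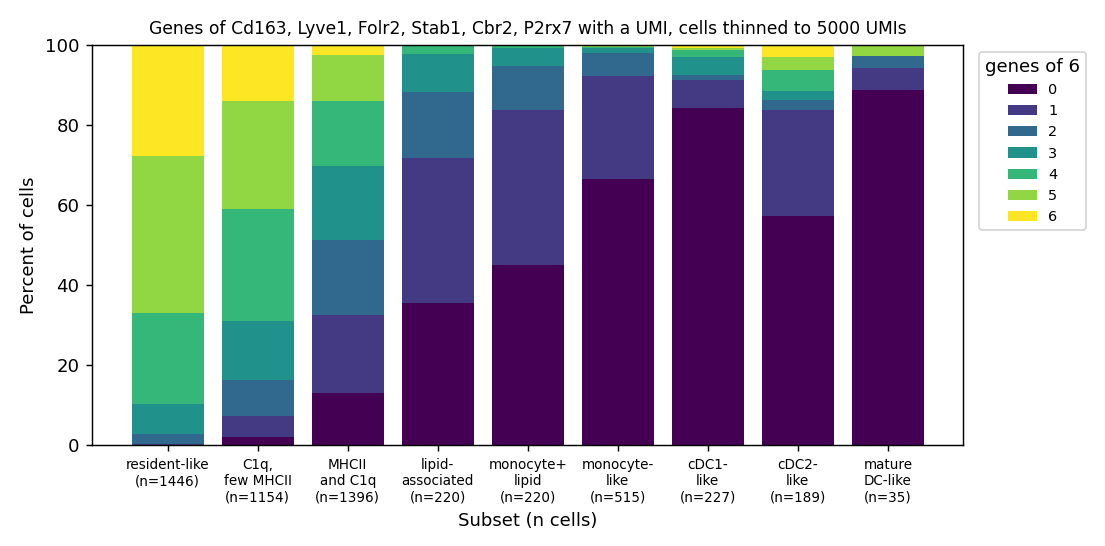
Percent of cells (y axis) in each subset (x axis, n cells) by how many of Cd163, Lyve1, Folr2, Stab1, Cbr2 and P2rx7 had a UMI after thinning to 5000 UMIs a cell, with 1 colour for each number from 0 to 6. All 6 were found in 27.8% of resident-like cells, and none in 66.4% of monocyte-like cells.

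Against monocyte-like cells, 8 of 10 members were at least 4-fold higher in resident-like macrophages, where 11.7% of 13476 genes with at least 50 UMIs were. The median log2 ratio was 4.48 over the members and 0.33 over all these genes. Both counts share their cells with the choice of the list, so nothing is read from the difference. Lyve1 (63.9-fold, log2 interval 5.62 to 6.40), Cd163 (log2 5.44, 5.18 to 5.72) and Folr2 (5.15, 4.92 to 5.40) stood highest among those with more than 3 UMIs in monocyte-like cells. The log2 ratio of Lyve1 was 5.19 with a resident-like gate on Ccl8 alone, below the 5.24 of Cd163 there, and 7.57 among cells of 5000 to under 10000 UMIs. It was 6.82 with the mesenchymal CPM subtracted. Timd4 had 1 UMI in all 515 monocyte-like cells, and its log2 ratio of 7.80 has an interval of 5.32 to 13.1. Mrc1 was just past the limit with 4.71-fold. Msr1 (log2 -1.33, -1.42 to -1.25) and Marco (-1.17, -1.83 to -0.50) went the other way, Marco through 1 cell.

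Against lipid-associated-like macrophages, again 8 of 10 were at least 4-fold higher (9.46% of all genes), with a median log2 ratio of 3.62 for the members and 0.30 for all genes. Lyve1 reached log2 6.53 (5.98 to 7.15) and Cd163 4.79 (4.54 to 5.06). The Lyve1 level of lipid-associated-like macrophages was 6.24 CPM from 26 UMIs. It could not be told apart from the 3.95 CPM of mesenchymal cells (log2 0.66, -0.05 to 1.32). With the mesenchymal CPM subtracted the ratio of Lyve1 was 7.97, so its size is not firm. Stab1, at 1.74 (1.63 to 1.86), and Msr1, at -0.49 (-0.61 to -0.37), did not pass. Marco passed on 49 UMIs against 1, with an interval of 0.84 to 8.72. With the cells of the highest Scrublet doublet scores also taken out, the log2 ratio of Cd163 was 6.28. Among cells of 5000 to under 10000 UMIs, with 21 lipid-associated-like cells, it was 3.38, that of Lyve1 was 4.74 and that of P2rx7 2.66. With the highest Scrublet scores removed, no Marco UMI was left in lipid-associated-like macrophages, and its lower bound of 1.495 against 3 counts does not show whether it passed.

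Against MHC class II and C1q macrophages 3 of 10 passed, with 0.935% of all genes doing so. These were Timd4 at log2 2.48 (2.18 to 2.81), Lyve1 at 2.35 (2.28 to 2.43) and P2rx7 at 2.24 (2.16 to 2.31). Folr2 came next with 1.82, then Cbr2 with 1.35, Cd163 with 1.20, Stab1 with 1.16, Marco with 0.60 (-0.13 to 1.35) and Mrc1 with 0.55. Msr1 did not differ beyond counting error (0.03, -0.06 to 0.11). With a resident-like gate on Ccl8 alone, the ratio of Lyve1 was 1.27 and 2 members passed. With one on Vsig4 and Cd209f the ratio of Lyve1 was 1.76 and only Timd4 passed.

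Against the pooled dendritic-like cells 8 of 10 passed (11.5% of all genes), now with Msr1 at log2 3.44 (3.12 to 3.77) and without Timd4 at -0.94 (-1.11 to -0.77) and Marco at 0.38 (-0.50 to 1.35). The 14 dendritic-like UMIs of Marco lay in 1 cell, and in 3 alternatives that left this cell out of the dendritic-like cells Marco passed. Its log2 ratio was at least 2.59 with over 500 genes and under 5% mitochondrial counts and at least 2.13 with doubled gate minimums, both bounds against 3 counts. With the resident-like gate on Ccl8 alone 39 UMIs stood against 1. Lyve1 (4.72, 4.50 to 4.96) and Folr2 (4.64, 4.46 to 4.83) stood highest with overlapping intervals, followed by Stab1 with 4.17 and Cbr2 with 4.16. This order is not firm, since with the resident-like gate on Ccl8 alone Folr2 was at 3.61 and Lyve1 at 3.10. Where cells of several gates, 98 of which passed both the resident-like and the cDC2-like gate, were given to their best list, the ratio of Lyve1 was 3.68 and that of Folr2 3.71. Among cells of 5000 to under 10000 UMIs, 72 of them dendritic-like, 6 members passed, since Mrc1 (1.58) and Msr1 (1.87) no longer did, and the ratio of Lyve1 was 2.59 and that of Cd163 2.01. No member was at least 4-fold lower in resident-like macrophages in any of the 4 comparisons (3.4%, 2.57%, 1.68% and 5.02% of all genes were). C1q macrophages with few MHC class II UMIs, the subset nearest in level for most members, were not among the 4. Over them the log2 ratios were all below the 4-fold limit. They were 1.02 for Timd4, 1.00 for Folr2, 0.98 for Lyve1, 0.63 for P2rx7 and 0.62 for Cbr2. Cd163 was at 0.47, Stab1 at 0.26 and Mrc1 at 0.20, while Msr1 and Marco were higher in that subset.

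**Figure D3:**
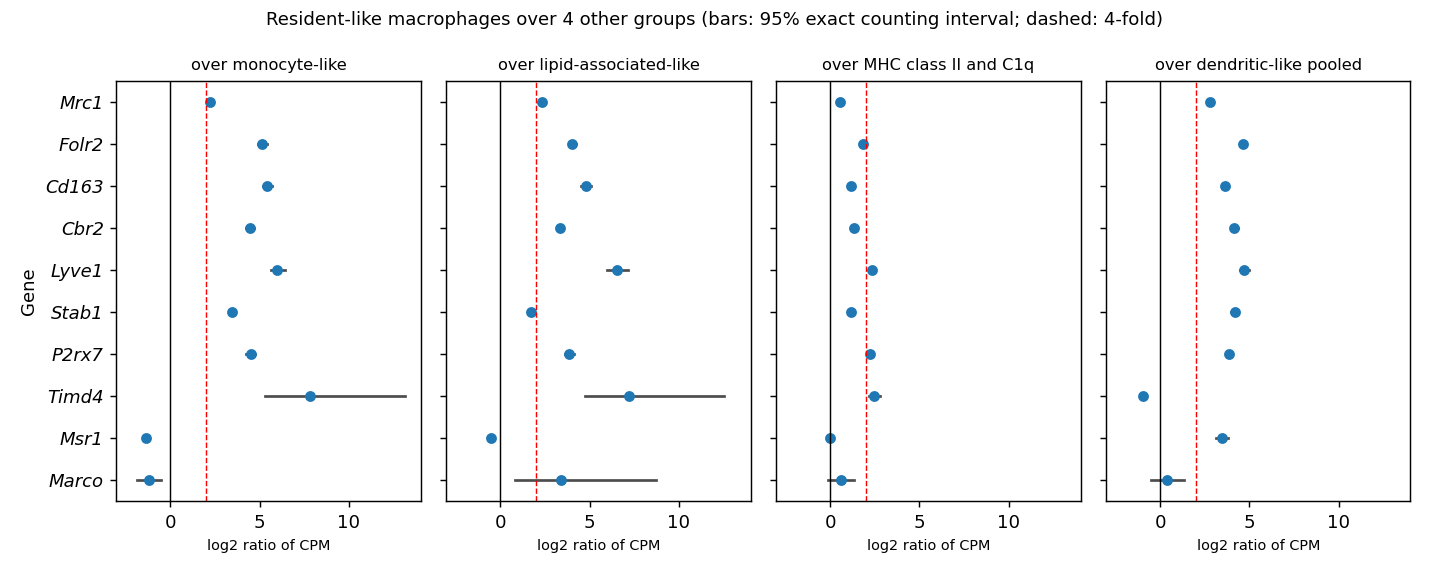
Log2 ratio of CPM (x axis) of each member (y axis) in resident-like macrophages over monocyte-like cells, lipid-associated-like macrophages, MHC class II and C1q macrophages and pooled dendritic-like cells, in 1 panel each. Points are ratios, bars exact 95% counting intervals and the dashed line is 4-fold, which 8, 8, 3 and 8 members reach. C1q macrophages with few MHC class II UMIs are not shown.

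Timd4, the phosphatidylserine receptor TIM4, was highest in cDC1-like cells, the dendritic cells that present material of dying cells to CD8 T cells. It was at 97.3 CPM (88.1 to 107) in cDC1-like cells and 92.7 (69.0 to 122) in mature dendritic-like cells, which cannot be told apart and of which the latter rest on 9 cells. Of the 35 mature cells 19 also passed a cDC gate, and without the top cell the mature level was 65.3. Resident-like macrophages followed with 35.9 CPM (33.3 to 38.7), C1q macrophages with few MHC class II UMIs with 17.7, cDC2-like cells with 17.0 and MHC class II and C1q macrophages with 6.42. In cells of both gates, lipid-associated-like and monocyte-like cells there were 2, 1 and 1 UMIs in all. The cDC1-like level was 2.71 times that of resident-like macrophages. Among cells of 5000 to under 10000 UMIs, the ratio of resident-like macrophages to pooled dendritic-like cells turned to log2 0.86.

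The Timd4 UMIs of cDC1-like cells lay in 84 of 227 cells, and the top cell held 5.16% of them. These 84 cells held fewer UMIs of the macrophage members than the 143 cDC1-like cells without Timd4. Mrc1 was at 44.7 CPM against 245, Folr2 at 5.44 against 30.1, Cd163 at 10.9 against 31.6 and C1qa, a gene of macrophages, at 68.3 against 312. Xcr1 was at 250 CPM (227 to 275) with Timd4 and 199 (182 to 217) without it, and Clec9a at 211 and 215. Median depths were 18365 and 17086 UMIs. Cycling cells, by Mki67 and Top2a, were 26 of 84 (31.0%, 21.3 to 42.0%) with Timd4 and 24 of 143 (16.8%, 11.1 to 23.9%) without it. Summed over cells, these macrophage transcripts were thus lower in the cDC1-like cells with Timd4. At 5000 UMIs a cell the intervals of the shares overlapped for Mrc1, Folr2 and Cd163. Mrc1 was found in 8.33% (3.42 to 16.4%) of cells with Timd4 and 16.8% (11.1 to 23.9%) without it, and Cd163 in 4.76% and 6.29%. At that depth 191 of the 227 cDC1-like cells held none of Cd163, Lyve1, Folr2, Stab1, Cbr2 and P2rx7.

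In resident-like macrophages 368 of 1446 cells held Timd4, with a thinned share of 2.28%. Lyve1 was at 757 CPM (734 to 781) in them and at 512 (500 to 523) in the 1078 cells without it, and at 1032 (976 to 1090) in the 80 cells with at least 3 Timd4 UMIs. Cd163 was at 951 against 752 CPM, P2rx7 at 579 against 473, Folr2 at 913 against 827 and Cbr2 at 696 against 597. In the 80 cells with at least 3 Timd4 UMIs P2rx7 was at 506 CPM, a log2 ratio of 0.098 (-0.022 to 0.22) to cells without Timd4. Marco was at 5.35 against 1.46 CPM, from 28 and 21 UMIs. Mrc1, Stab1 and Msr1 moved by a log2 ratio of 0.11 or less. Median depths were 13121 UMIs with Timd4 and 12673 without.

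Msr1, the class A scavenger receptor for modified lipoproteins, ran against the list. It was at 312 CPM (299 to 327) in monocyte-like cells, 266 (250 to 282) in cells of both gates, 174 (162 to 188) in lipid-associated-like macrophages, 146 in C1q macrophages with few MHC class II UMIs, 124 (119 to 129) in resident-like macrophages and 122 in MHC class II and C1q macrophages. The last 2 could not be put in order. Of monocyte-like cells 416 of 515 held it. Dendritic-like cells were low, at 19.0 CPM in cDC2-like cells, 7.41 in cDC1-like cells and 7.27 in mature cells, against 1.18 in mesenchymal cells. Msr1 was therefore highest in monocyte-like cells, lower in macrophages and lowest in dendritic-like cells.

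Marco, another class A receptor, was near 0. It had 211 UMIs in all deep cells and was at 2.50 CPM (1.85 to 3.31) in resident-like macrophages, from 22 of 1446 cells. The level of 6.37 CPM in C1q macrophages with few MHC class II UMIs drew 39.2% from 1 cell. In monocyte-like cells 34 of the 35 UMIs were in 1 cell and in cDC2-like cells all 14 were. Without its top cell the monocyte-like level was 0.162 CPM.

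**Figure D4:**
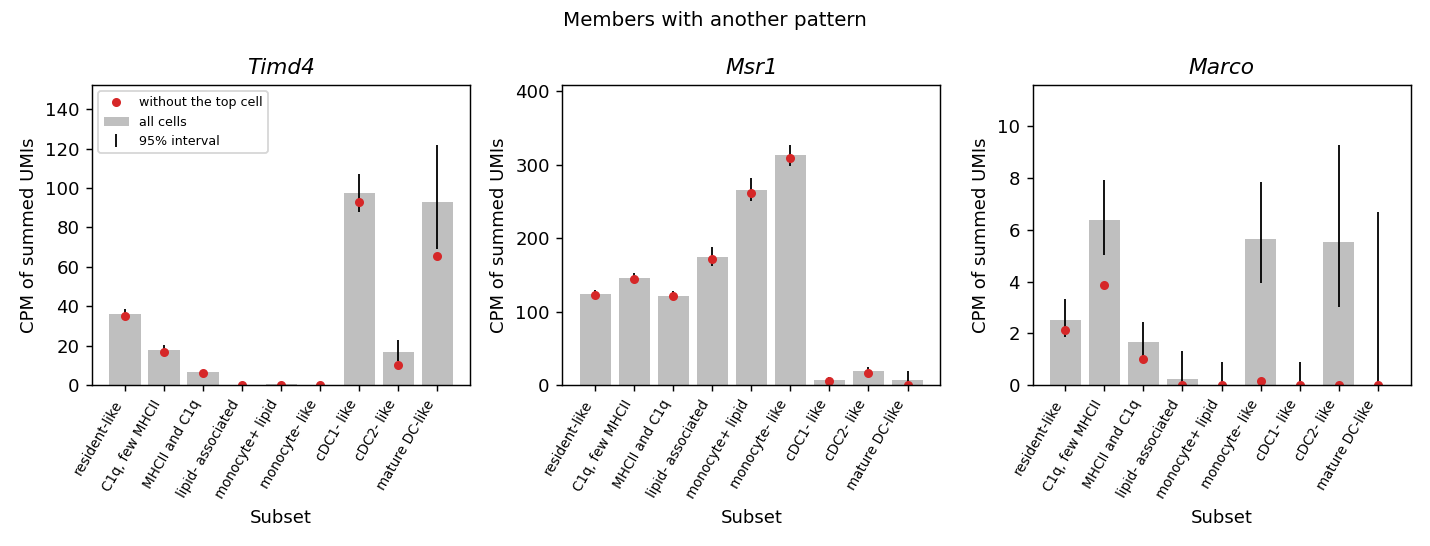
Levels of Timd4, Msr1 and Marco (y axes, CPM of summed UMIs) in 9 subsets (x axes). Bars are all cells, lines exact 95% counting intervals and points the level without the cell that holds the most UMIs. Timd4 stands at 97.3 in cDC1-like cells, Msr1 at 312 in monocyte-like cells, and the Marco values of monocyte-like and cDC2-like cells are near 0 without 1 cell.

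Resident-like macrophages were not uniform in MHC class II, which was not used in their gate. Of them 971 had under 10 UMIs of H2-Aa, H2-Ab1 and H2-Eb1 together, 202 had 10 to 49 and 273 had 50 or more, at median depths of 12786, 12304 and 13062 UMIs. P2rx7 was at 610 CPM (597 to 624), 392 (368 to 416) and 215 (201 to 230), a log2 ratio of -1.51 (-1.61 to -1.40) between the ends. Timd4 was at 41.0, 37.4 and 18.3 CPM, and Stab1 at 573, 502 and 381 CPM. Lyve1 was at 561, 655 and 577 CPM and Msr1 at 120, 128 and 134 CPM. Mrc1, Folr2, Cd163 and Cbr2 differed by a log2 ratio of 0.22 or less between the ends. P2rx7 and Timd4 were also among the 3 members at least 4-fold lower in MHC class II and C1q macrophages, whereas Lyve1, the other of them, did not differ between the ends beyond counting error. For P2rx7 the ratio between the ends ranged from -2.49 to -0.95 over the alternative gates, depths and filters.

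**Figure D5:**
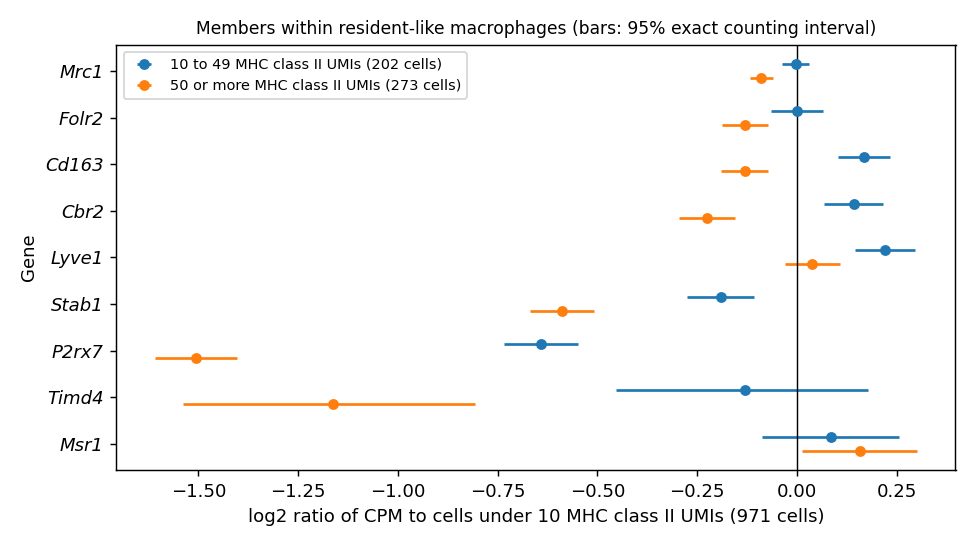
Log2 ratio of CPM (x axis) of 9 members (y axis) in resident-like macrophages with 10 to 49 or with 50 or more MHC class II UMIs over those with under 10. Points are ratios and bars exact 95% counting intervals. P2rx7 lies at -0.64 and -1.51, Timd4 at -0.13 and -1.16 and Stab1 at -0.19 and -0.59, while Lyve1 lies at 0.22 and 0.04.

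Other genes of the same pathways were taken from lists chosen with earlier results of these data known. The counts below are of genes at least 4-fold higher or lower in resident-like macrophages than in monocyte-like cells, where 11.7% of all genes were higher and 3.4% lower. Of 16 other scavenger receptors 12 had enough UMIs, and 2 were higher and 1 lower, near these shares. Colec12, a collectin receptor, was the 1 that was higher in all 4 comparisons, at 166 CPM in resident-like macrophages, 123 in C1q macrophages with few MHC class II UMIs, 33.1 in MHC class II and C1q macrophages and 16.0 in monocyte-like cells. Olr1, the receptor LOX-1 for oxidised lipoprotein, was at 3.52 CPM in resident-like macrophages, 144 in lipid-associated-like macrophages and 116 in monocyte-like cells. Cd36, the fatty acid and lipoprotein receptor, was at 631 CPM in resident-like macrophages against 993 in lipid-associated-like ones.

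Among receptors and bridging proteins for phosphatidylserine, 5 of 8 had enough UMIs, and 3 were higher than in monocyte-like cells (11.7% of all genes), with Gas6, a marker of the resident-like gate, among the 3. Mertk was at 201 CPM in resident-like macrophages and 28.2 in monocyte-like cells, and its ligand Pros1 at 212 and 34.8. Gas6, the other ligand, was at 627 and 16.9 CPM. Axl was at 11.9 CPM in resident-like macrophages and 63.7 in MHC class II and C1q macrophages, log2 -2.42.

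Of 9 C-type lectins in the matrix 7 were higher than in monocyte-like cells (11.7% of all genes), but Cd209f is one of the 7 and the gate fixed its call. Cd209b, Cd209d and Cd209g, relatives of Cd209f, were at 27.1, 43.9 and 43.9 CPM in resident-like macrophages and at 1.46, 2.78 and 3.11 in MHC class II and C1q macrophages. Cd209d was highest in cDC2-like cells, at 249.6 CPM. Reads of such close relatives may be split between them. Mgl2 was at 534 CPM in resident-like, 637 in MHC class II and C1q macrophages and 734 in cDC2-like cells. Clec7a was not analysed here.

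Around Cd163, the iron exporter Slc40a1 was at 34.6 CPM in resident-like macrophages, 4.83 in MHC class II and C1q macrophages and 0.322 in monocyte-like cells. Haem oxygenase (Hmox1) was at 567, 421 and 398 CPM in the same subsets, and the biliverdin reductase Blvrb at 407, 217 and 114. Haptoglobin (Hp), a monocyte gate marker, was at 1.33 CPM in resident-like macrophages and 230 in monocyte-like cells. Of the 7 genes of this list with enough UMIs 1 was higher and 1, Hp, lower than in monocyte-like cells, against 11.7% and 3.4% of all genes.

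Around P2rx7, 1 of 11 genes was higher and 2 were lower than in monocyte-like cells, against 11.7% and 3.4% of all genes. P2ry12, an ADP receptor, was at 88.9 CPM in resident-like macrophages and 8.22 in monocyte-like cells. Il1b, the cytokine that is released through the inflammasome downstream of the P2RX7 channel, ran the other way with 71.0 CPM in resident-like macrophages, 272 in C1q macrophages with few MHC class II UMIs, 650 in MHC class II and C1q macrophages, 1822 in lipid-associated-like macrophages and 4260 in monocyte-like cells. Nlrp3 and Casp1 varied less, at 295 and 48.8 CPM in resident-like macrophages and 440 and 35.3 in monocyte-like cells. Among these 5 subsets P2rx7 was thus highest where Il1b was lowest.

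Around Folr2, none of 5 folate genes passed in either direction against monocyte-like cells, and Folr1 had under 50 UMIs. Around Lyve1, 3 of 5 hyaluronan genes were higher and none lower than in monocyte-like cells, against 11.7% and 3.4% of all genes. The 3 were Hyal1, Hyal2 and Hmmr, a hyaluronan receptor that also serves in cell division, with 98 UMIs in resident-like macrophages and 2 in monocyte-like cells. Cd44, another hyaluronan receptor, was at 360 CPM in resident-like macrophages and 1167 in monocyte-like cells. Hyal2, an enzyme that cuts hyaluronan, was at 14.1 and 1.29 CPM. None of the 4 other carbonyl reductases on the list (Cbr1, Cbr3, Cbr4 and Dcxr) passed in any comparison, with log2 ratios of 0.39 to 1.38 over monocyte-like cells.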

How the data were processed

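The authors deposited raw UMI counts of 1 GFP+ library, made with Cell Ranger after sorting and 10x 3' v3 HT preparation, and not normalized. The file header names Cell Ranger 8.0.1, and the submitters' processing notes name Cell Ranger 7.1.0, Seurat 4.30 and the build mm10, while the study also names GRCm39. The matrix has no coordinates, and windows are RefSeq GRCm38.p6 (mm10). Of the second library only barcodes were used.

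Barcodes with at least 5000 UMIs, over 200 genes and under 10% mitochondrial counts were kept. A myeloid cell had at least 0.2% of UMIs from 8 markers and non-myeloid markers under 5% of the UMIs of both lists, without lymphoid, mast or neutrophil markers. The gates needed at least 5 UMIs (resident-like), 3 (monocyte-like, and lipid-associated-like with 3 of Fabp5) or 2 (dendritic-like) and further list genes. Cells of several gates (172) were left out, except those of the monocyte and lipid-associated gates together, and mature dendritic-like cells took precedence over the other dendritic gates. Doublets were not otherwise removed. As an alternative, the 1267 deep cells with the highest Scrublet scores (scanpy 1.11.5), 14.6%, were taken out.

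UMIs of a gene were summed per subset and divided by all its UMIs. CPM carries exact Poisson, a share exact Clopper-Pearson and a ratio exact conditional 95% intervals, which cover counting error only. Where a subset had no UMI the ratio was taken against 3 counts. A single library allows no test, so no p is given. Genes with at least 50 UMIs over the 9 subsets gave the background of each count. Free RNA was judged from mesenchymal cells. The ratios and gates were run on counts simulated from the summed profiles of these subsets. The simulation had no added spread between cells, free RNA or mixed droplets, so it checks the calculation and not the names of the subsets. The members, gene lists and gates were chosen with earlier results of these data known, and each gene named is a member, a marker of a gate or a gene of such a list, save those named for a pattern like a member's, the 3 most similar each. Python 3.11.15, numpy 2.4.6, scipy 1.17.1 and pandas 2.3.3 were used.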

Additional observations from a re-analysis of the deposited data

How the results depend on the processing

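The counts of members past 4-fold higher in resident-like macrophages were compared under all alternatives of limit, filter, gate, scaling and doublet removal. They were within 1.5 times of those given with 4 exceptions. Members lower in resident-like macrophages were not counted under the alternatives. Against lipid-associated-like macrophages 5 members passed among cells of 5000 to under 10000 UMIs, where that subset held 21 cells and no Timd4 UMI, so that Timd4 has only a lower bound (1.28) there. Against MHC class II and C1q macrophages 1 passed with a resident-like gate on Vsig4 and Cd209f, 7 at a 2-fold limit and 0 at an 8-fold limit. The number of members highest in resident-like macrophages was 7 under each of these filters, gates and scalings. A changed limit alters a count by itself. The cause of the other shifts was not tested, and among cells of 5000 to under 10000 UMIs depth and subset size changed together.

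Some log2 ratios changed direction. Marco in resident-like over monocyte-like cells was at least 2.18 without the highest Scrublet scores, a bound against 3 counts as no monocyte-like UMI was left, and Timd4 over pooled dendritic-like cells was 0.86 among cells of 5000 to under 10000 UMIs, where 72 dendritic-like cells were left. Within resident-like macrophages, the small differences between many and few MHC class II UMIs turned for Cd163 (0.017 with doubled gate minimums, 0.21 with the Vsig4 and Cd209f gate, 0.054 in that depth band), Msr1 (-0.069 and -0.035 with the last 2), Folr2 (0.040) and Cbr2 (0.037, both in that depth band), so none of these 4 has a settled direction there.

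Of 54 ratios, 53 kept their sign without the highest Scrublet scores and 10 moved by over 1.5 times. Among cells of 5000 to under 10000 UMIs 23 of 50 moved by that much, with the resident-like gate on Ccl8 alone 14, with that on Vsig4 and Cd209f 12, with cells of several gates given to the best list 8, and with the GFP- barcodes left out 0. With the mesenchymal CPM subtracted 4 of 45 moved by that much. The gates on Ccl8 and on Vsig4 with Cd209f, the removal of shared barcodes and the depth band were added after seeing the data. The share of genes past 4-fold over monocyte-like cells was 6.36% for genes with at least 500 UMIs and 10.5% for all with a UMI. Over lipid-associated-like macrophages these were 5.13% and 7.98%, and over MHC class II and C1q macrophages 0.447% and 2.06%. No paired analysis was possible because there is 1 library. A single library shows neither the spread between animals nor any effect of the crush.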

Other observations

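Cycling resident-like macrophages, 54 of 1446 by Mki67 and Top2a, held P2rx7 at 288 CPM (257 to 322) against 513 (503 to 524) in the others, a log2 ratio of -0.83 (-0.999 to -0.67). Lyve1 was at 438 against 585 CPM, Folr2 at 647 against 862 and Cd163 at 658 against 814. Mrc1 was at 3416 against 3084 CPM, and for Cbr2 and Stab1 the interval of the ratio reached 0. The median depth was 18412 UMIs in cycling cells and 12620 in the others, and its part in these values was not tested.

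Of 10673 genes with at least 200 UMIs in the 9 subsets, those whose log2(CPM + 1) ran most like Msr1 were Fcgr1, Pstpip2 and Mettl9 (Pearson r of 0.99 for each, over 9 subsets of the same library), and those most like Timd4 were Hmmr, H2afv and Txndc16 (r of 0.97 each). For Cd163 they were Cmah, Slc23a3 and Tbc1d16 (r of 0.99 each). With 10 in place of 1 as the added constant, 2 of the 3 remained for Msr1 and 1 for Timd4 and for Cd163, and with rank correlation 0 for each, so the order of such close values is not firm.

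Haemoglobin transcripts, the cargo that CD163 clears as protein, were gathered in single barcodes: 1 resident-like cell held 8572 of the 9089 haemoglobin UMIs of its subset, and 4 cells held 10 or more.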
